A study of Schizosaccharomyces pombe with 80 samples.

Results

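The 15 isolates described here are fission yeast (Schizosaccharomyces pombe) clones that lack epe1 and received only an empty expression vector, and each was compared with the epe1delta strain from which all 15 were made. Members were taken by their sample titles, and they are 15 of the 80 samples of the series. The parent gave 1 library, and 1 input library, made from chromatin without antibody, served the whole set. The isolates carry the vector pDUAL-nmt1-vector_only in an epe1delta background, and the parent is epe1delta with no vector. All were grown at 30 °C, and H3K9me2, the dimethyl mark on lysine 9 of histone H3, was precipitated with the antibody ab1220. Neither group carries the dominant-negative tfs1 allele (tfs1DN, from a transcription elongation factor) that other samples of the series express. Every isolate and the parent lack epe1, and no epe1+ strain was part of the comparison. Each isolate is a separate clone, but all descend from a single parent and each has 1 peak list. Differences between clones and between library preparations cannot be told apart, and the differences below are descriptions of 15 clones against 1 library, with no test.

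In fission yeast the methyltransferase Clr4 writes H3K9me, and HP1 proteins bind the mark and help it spread along the chromosome. Constitutive heterochromatin lies at the pericentromeric repeats, the silent mating-type region and the chromosome ends, and smaller islands lie over meiotic genes whose transcripts are destroyed in growing cells by the Mmi1 RNA elimination system. Epe1, a JmjC-domain protein recruited by HP1, opposes the spread of heterochromatin, and cells without it are known for domains that expand and that differ from clone to clone. Mmi1 recognizes transcripts through repeats of the hexamer UUAAAC, which reads TTAAAC in DNA.

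The islands shared by the parent and all isolates included mei4, ssm4 and num1, and a domain gained by a single isolate lay over mcp3. The coding sequence of each of these meiotic genes holds TTAAAC more than once. The stretches below, read 5′ to 3′ on the coding strand from the RefSeq assembly ASM294v3, are the 120-base coding windows of each gene with the most copies, and they are shown because the H3K9me2 domains described next lie over them. Capitals mark TTAAAC.
mei4: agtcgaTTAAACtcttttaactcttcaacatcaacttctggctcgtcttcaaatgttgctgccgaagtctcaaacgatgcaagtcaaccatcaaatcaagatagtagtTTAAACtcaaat
ssm4: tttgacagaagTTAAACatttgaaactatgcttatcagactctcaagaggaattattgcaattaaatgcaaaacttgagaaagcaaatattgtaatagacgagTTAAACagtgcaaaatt
num1: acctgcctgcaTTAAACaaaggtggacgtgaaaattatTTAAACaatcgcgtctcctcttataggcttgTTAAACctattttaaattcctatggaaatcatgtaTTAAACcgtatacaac
mcp3: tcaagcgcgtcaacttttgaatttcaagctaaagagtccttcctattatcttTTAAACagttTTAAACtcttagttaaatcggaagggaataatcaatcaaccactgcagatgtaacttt
The windows are chrII:1473809-1473928 (plus strand, mei4), chrI:4535161-4535280 (minus strand, ssm4), chrII:899603-899722 (plus strand, num1) and chrI:5077804-5077923 (minus strand, mcp3). The whole coding sequence held TTAAAC 4 times in mei4, 6 times in ssm4, 6 times in num1 and 5 times in mcp3, while the reverse complement GTTTAA occurred 1, 1, 2 and 1 times. Copies of TTAAAC cannot overlap one another. Of 5113 coding genes, 32.9% held TTAAAC at least once on the coding strand. A 120-base window with 2 copies, as in mei4, ssm4 and mcp3, was found in 1.68% of the 5061 genes with an exon that long, and num1, with 4 copies, was the only gene with so many. The mcp7 coding sequence held none, and its whole gene span of 1499 bases held 3. These letters are a description of the sequence, and Mmi1 binding was not measured here.

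Peaks were called in each library separately, and a peak's coverage was at least 3.01 times the coverage given for its chromosome in all 17 lists. The parent had 56 peaks covering 384 kb. The isolates had 43 to 83 peaks (median 63) covering 287 to 407 kb, with a mean of 365 ± 35.7 kb (SD, n = 15), and 6 of 15 covered more than the parent. Isolate 15 had the fewest peaks and kb, isolate 7 had the most peaks, and isolate 4 had the most kb. The input had 40 peaks over 48.7 kb. Chromosome coverage, weighted by chromosome length, was 7.1 in the parent and 1.83 to 6.9 (median 3.22) in the isolates, so every isolate had lower coverage than the parent. No relation of coverage to the number of peaks was detected across isolates (Pearson r = -0.05, permutation p = 0.866, Spearman rho = -0.07, p = 0.809, Benjamini-Hochberg adjusted p = 0.866 and 0.861 over 6 relations, n = 15). Without isolates 1 and 4, the 2 farthest from the median coverage, r was -0.18. The other relations of coverage had r = 0.37 with kb under peaks, r = 0.32 with kb at chromosome ends and r = -0.47 with lost loci. For gained loci r was 0.06, and for peaks under 1 kb it was -0.14. In the same order, rho was 0.48, 0.475, -0.46, -0.07 and -0.05. The lowest of their adjusted permutation p-values was 0.463 for r and 0.171 for rho (2-sided).

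**Figure D1:**
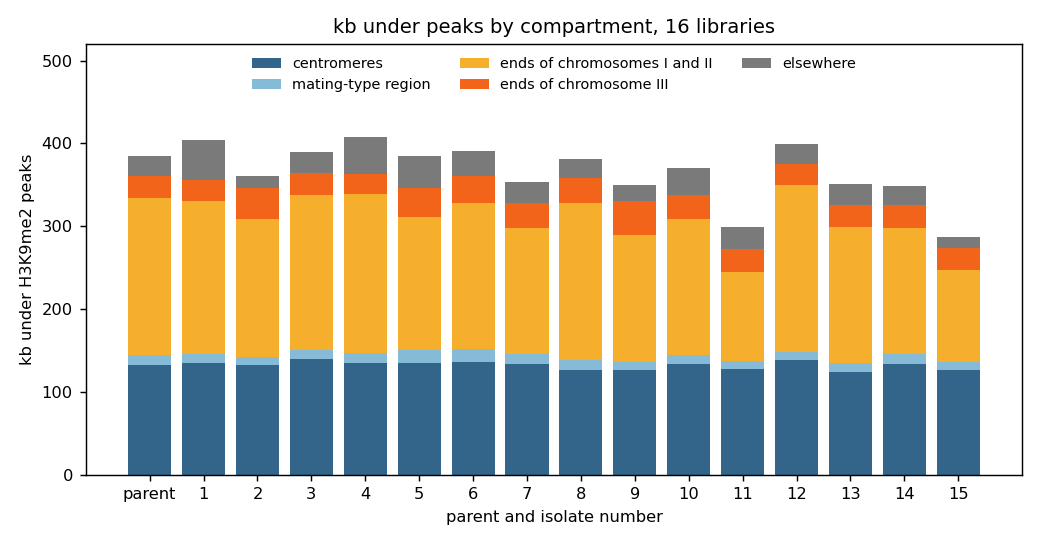
Stacked bars give the kb under H3K9me2 peaks in the parent and in isolates 1 to 15, divided into centromeres, mating-type region, ends of chromosomes I and II, ends of chromosome III and elsewhere. The centromere segment is nearly level at 124 to 139 kb, while the ends of chromosomes I and II run from 107 kb in isolate 11 to 202 kb in isolate 12.

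The centromeres were the steadiest compartment among the clones. Centromeric peaks covered 133 kb in the parent and 124 to 139 kb in the isolates (mean 132 ± 4.73 kb, SD, n = 15). The input also had peaks at loci of centromeres I, II and III. Centromere III ranged from 59.6 to 61.9 kb and centromere II from 30 to 33.2 kb, with parent values of 61.5 and 32.3 kb inside both ranges. Centromere I varied more, from 32.5 kb in isolate 13 to 44.3 kb in isolate 3, beside 38.8 kb in the parent. The variation there lay at the outer edges: the left domain, which reaches per1 and rpl1002, was at least 1 kb longer than in the parent in 8 isolates and at least 1 kb shorter in 5. In a bulk library a lower signal in every cell and a mark present in fewer cells cannot be told apart.

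In the mating-type region the mat1 peak had nearly the same length in every library, 1.53 to 1.74 kb beside 1.59 kb in the parent. The annotation has Mc and Mi genes at both mat1 and mat3, and how reads shared by such copies were placed was not examined. The silent domain at mat3 varied: it covered 10.9 kb in the parent and 7.56 to 13.5 kb in the isolates (median 9.25 kb). It was at least 1 kb shorter in 10 isolates. Isolates 5 and 6 stood above the parent, with 13.5 and 13.3 kb, and in both the right edge had moved outward, by 1.74 and 1.47 kb, into mtd1 and srp40.

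The chromosome ends carried most of the difference between clones. The left end of chromosome I, which begins in the RecQ-type helicase gene tlh1, was covered over 91.1 kb in the parent and over 43.3 to 91.8 kb in the isolates (median 81.5 kb), and 14 of 15 isolates had less than the parent. The largest locus there ended at position 90858 in the parent, at 70135 in isolate 11 and at 71195 in isolate 15. ght3, a hexose transporter gene covered over its whole length in the parent, was under a peak in 11 isolates, and str3, a siderophore transporter gene also wholly covered in the parent, in 6. Isolates 11 and 15 had 43.3 and 46 kb at this end, and the next lowest, isolate 7, had 72.6 kb.

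The right end of chromosome II, which contains the second helicase gene tlh2 and the galactose metabolism genes gal1, gal7 and gal10, covered 56.4 kb in the parent and 44.2 to 64.9 kb in the isolates (median 48.9 kb). Isolate 8 had the most. Its outer edges at the main locus differed from those of the parent by 0.198 and 0.234 kb, and of its additional 9.21 kb, 8.78 kb lay in gaps between the parent's peaks. gal1 was wholly covered in the parent and was at least 50% covered in 8 isolates. gal7 had no peak in the parent and had one in 1 isolate. The left end of chromosome II covered 36.8 kb in the parent and 18.3 to 41.1 kb in the isolates (median 34 kb). fex2, a fluoride exporter gene inside it, had 2.8 kb under peaks in the parent and 2.2 to 3.05 kb in 13 isolates, and isolates 11 and 15 had no peak there. The right end of chromosome I held little, 4.97 kb in the parent and 0 to 9.5 kb in the isolates, with none in isolate 2 and the most in isolate 12.

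Isolates 11 and 15, with the shortest ends of chromosomes I and II (107 and 111 kb, beside 189 kb in the parent), also had the 2 lowest length-weighted folds at centromeric peaks, 48.3 and 38.5, where the parent had 61.9 and the isolates had a median of 72.4. Across the isolates this fold and the kb at those ends had r = 0.70 (permutation p = 0.00344, adjusted p = 0.0275 over 8 relations) and rho = 0.57 (p = 0.0292, adjusted p = 0.171, n = 15). This relation was chosen after the values were seen. Without isolates 11 and 15, which were also the 2 farthest from the median fold, r fell to 0.38, so the relation rests on those clones. The deposited peaks end near a fixed multiple of the chromosome value, and the part of enrichment in the short ends was not tested.

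**Figure D2:**
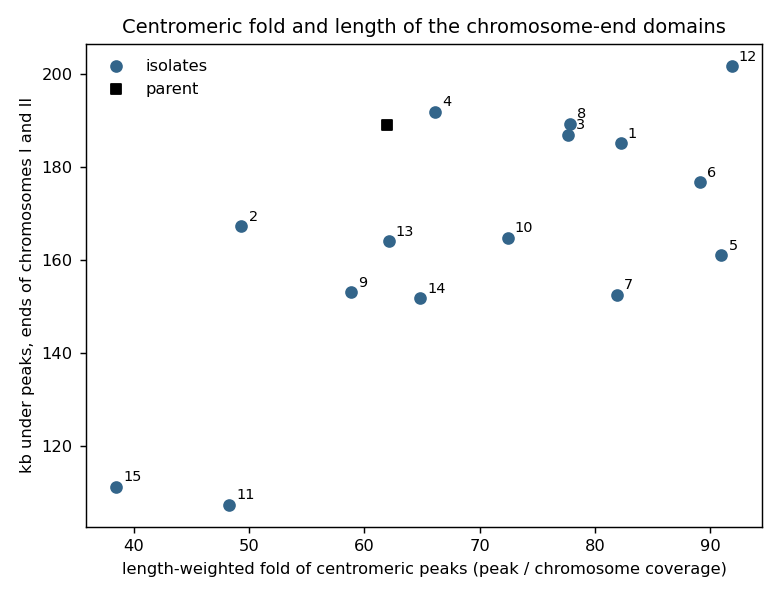
Each point is an isolate, numbered, with the parent as a square; the horizontal axis is the length-weighted fold of centromeric peaks over chromosome coverage, and the vertical axis is the kb under peaks at the ends of chromosomes I and II. Isolates 11 and 15 lie apart at 107 and 111 kb, and the remaining isolates lie between 152 and 202 kb.

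Chromosome III, whose left end holds ribosomal RNA genes in the annotation, went the other way in several clones. Its ends covered 25.9 kb in the parent, with none at the right end, and 25 to 41.1 kb in the isolates (median 28.3 kb), and 12 of 15 isolates had more than the parent. At the right end, isolate 9 had 6.86 kb and isolate 2 had 6.33 kb, and isolates 1, 4 and 12 had no peak. The length-weighted fold at the loci of this end was 3.03 to 3.71, close to the calling threshold. Of the 5 loci at this end, 2 also overlapped a peak of the input. Those 2 held 3.9 and 0.9 kb in isolate 9, and 2.3 and 3.16 kb in isolate 2. The main locus of the left end overlapped a peak of the input too. It held 25.2 kb in the parent and 25 to 29 kb in the isolates and covers the ribosomal RNA genes. Isolate 9 had the lowest coverage of the 15 libraries, 1.83, and isolate 4 had the highest, 6.9.

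To follow single loci, peaks of the 16 antibody libraries less than 1 kb apart were joined, which gave 68 loci, 40 of them at constitutive heterochromatin and 28 elsewhere. The parent held 35 loci. Of these, 20 were held by all 15 isolates, 13 at constitutive heterochromatin and 7 elsewhere, and 9 of the 20 also overlapped a peak of the input. Those 9 lay at centromeres I, II and III, the left ends of chromosomes I and III, the right end of chromosome II, and fil1 and gir2. Across all 16 lists, 506 kb lay under a peak in at least 1 library, and 268 kb (52.9%) lay under a peak in every library. A further 122 kb (24%) was covered in at least 1 isolate and not in the parent, of which 54.8 kb was covered in exactly 1 isolate. The parent had 2.22 kb that no isolate covered. The overlap with the parent, as bases shared over bases in either list, was 0.70 to 0.91 (median 0.86), with the lowest values in isolates 11 and 15. Pairs of isolates overlapped by 0.69 to 0.93 (median 0.84).

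Outside constitutive heterochromatin, the 7 loci held by every library were the domains at mcp7, num1, ssm4 and mei4, and peaks of about 1 kb at mae2, at fil1 and gir2, and over the noncoding genes SPNCRNA.7615 and SPNCRNA.7614. With only peaks of a fold of at least 4.5 counted, mei4 alone stayed in the parent and all 15 isolates. mcp7 was then in the parent and 12 isolates. At the remaining loci the parent had no such peak, and the isolates with one numbered 10 at num1, 5 at ssm4, 4 at mae2, 14 at fil1 and gir2, and 9 at the noncoding genes. The parent's kb lay outside the range of the isolates at 3 of the 20 loci held by all libraries (15%): the left end of chromosome I, where the parent was the longest, and mei4 and the noncoding locus, where it was the shortest.

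The mcp7 domain gave the longest single expansion. mcp7 encodes a coiled-coil protein of meiotic recombination, and ubp8, the deubiquitinating enzyme of the SAGA coactivator, lies beside it. The parent had 3.53 kb there (chrI:578209-581734), isolate 1 had 18.2 kb, isolate 13 had 14.7 kb, and the remaining 13 isolates had 2.69 to 3.78 kb (median 3.52 kb). No isolate fell between 3.78 and 14.7 kb. In isolates 1 and 13 the left edge had moved by 0.695 and 0.054 kb and the right edge by 14 and 12.9 kb. The added stretch covered at least 50% of csr102, ysp2, pdc202 and img2 in both clones, and of mms1, a gene of replication repair, in isolate 1. The fold over the domain was 13.5 in isolate 1 and 7.6 in isolate 13, beside 6.32 in the parent and a median of 7.54 over the isolates, and isolates 5, 6, 7 and 10, which had not expanded, had 11.5, 10.1, 8.76 and 9.12.

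The num1 domain varied widely. num1, also called mcp5, encodes the cortical anchor of dynein in meiotic nuclear movement. The parent had 3.22 kb and the isolates 2.21 to 14.8 kb (median 5.28 kb), and 10 of 15 were at least 1 kb longer than the parent while isolate 2 was 1 kb shorter. Isolates 10 and 11 were the longest, with 14.8 and 13.8 kb, followed by isolates 5 and 1 with 11.1 kb each, and the other 11 had 2.21 to 6.94 kb. Growth was mainly to the right, by 11.4 kb in isolate 10 and by 6.3 kb in isolates 1 and 5. mxr2, a methionine sulfoxide reductase gene with no peak in the parent, was covered over at least 50% of its length in 8 isolates. rad3, the ATR checkpoint kinase gene, was covered over 83.5% in isolate 10 and 72.5% in isolate 11, and swi1, a replication fork protection gene, over 63.5% in isolate 10. The fold was 4.13 in the parent and 3.41 to 12.9 in the isolates. Isolate 11, which had the second longest num1 domain, had the shortest ends of chromosomes I and II.

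**Figure D3:**
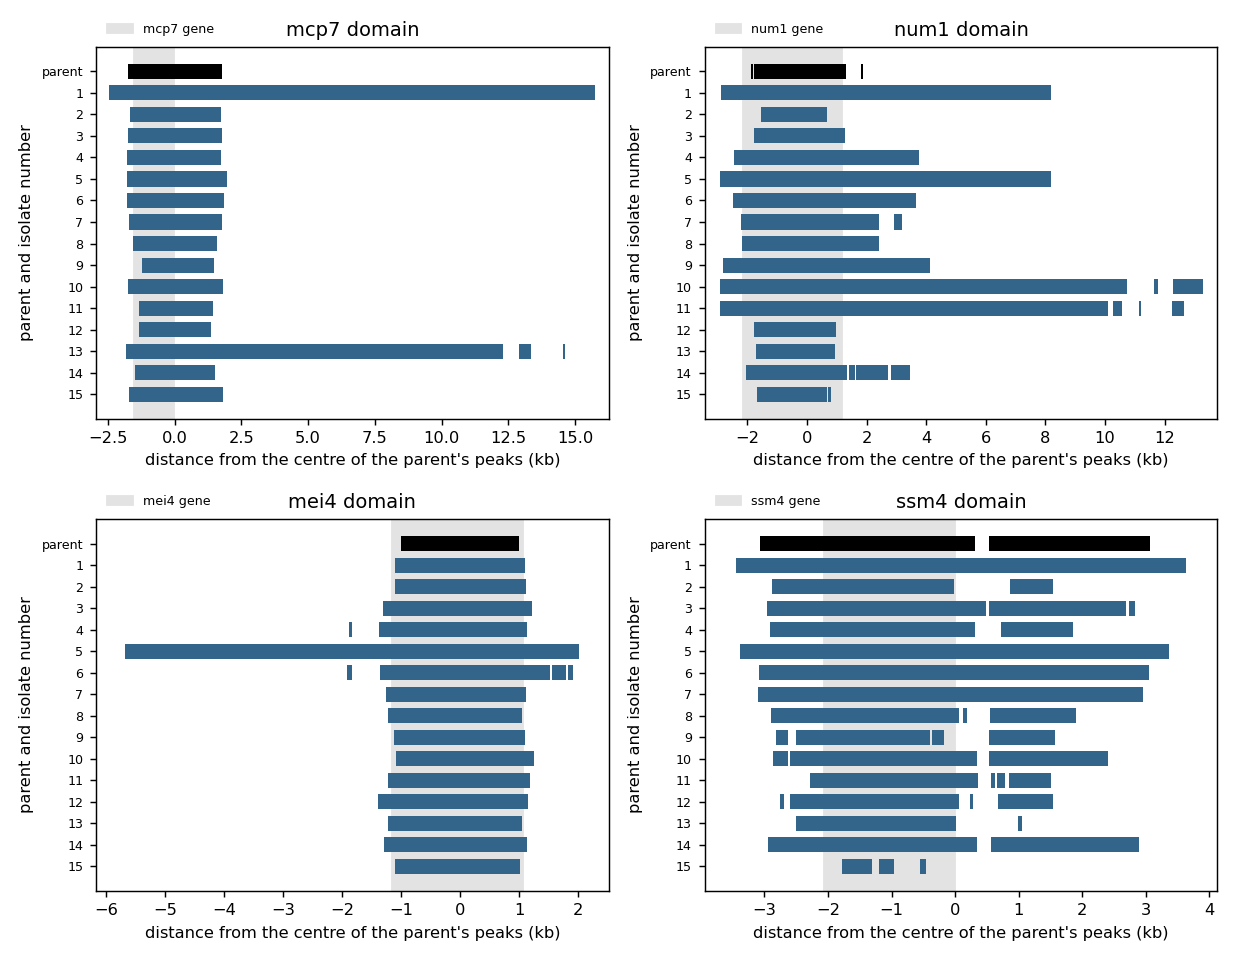
Bars mark the peaks of the parent (black) and isolates 1 to 15 (blue) at the mcp7, num1, mei4 and ssm4 domains, against distance in kb from the centre of the parent's peaks, with the gene shaded. Isolates 1 and 13 extend about 14 and 12.9 kb rightward at mcp7, isolates 10 and 11 are longest at num1, isolate 5 stands alone at mei4, and isolate 15 is shortest at ssm4.

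At mei4, which encodes the forkhead transcription factor of meiosis, isolate 5 stood apart. It had 7.68 kb beside 2 kb in the parent and 2.11 to 3.27 kb in the other 14 isolates (median 2.36 kb). Its domain extended 4.67 kb to the left, over cdk9, the kinase of the elongation factor P-TEFb, and wdr8, and 1.01 kb to the right, into act1, the actin gene, of which 41% was covered. Isolate 6 had 3.27 kb and also reached act1. All 15 isolates had more kb than the parent here.

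The ssm4 domain was more often at least 1 kb shorter than at least 1 kb longer. ssm4 encodes a dynactin-like protein of meiotic nuclear movement, and but1 and tpr1 flank it. The parent had 5.91 kb and the isolates 0.804 to 7.07 kb (median 4.37 kb). It was at least 1 kb shorter in 8 isolates and at least 1 kb longer in isolate 1 alone. Isolate 15 had the least, with the peaks confined to ssm4. Every library kept a peak over ssm4. With only peaks of a fold of at least 4.5 counted, 5 isolates and not the parent had a peak here.

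The other 3 loci held by all libraries were narrow. The peak in mae2, the malic enzyme gene, had 0.972 kb in the parent and 0.432 to 1.01 kb in the isolates. The peak at fil1, a transcription factor gene of amino acid metabolism, and gir2 had 0.98 kb in the parent and 0.965 to 1.05 kb in the isolates, and the input had a peak there too. The peak over SPNCRNA.7615 and SPNCRNA.7614 had 0.445 kb in the parent and 0.952 to 1.01 kb in the isolates, and it was in none of the 57 other lists of the series that hold a peak. Not all of the 57 are H3K9me2 lists, because lists from input or RNA polymerase II libraries were counted too. mae2 was in all 15 lists of seb1-1 epe1 tfs1DN isolates and in 0 of the 13 lists of epe1 tfs1DN isolates. It was also in 1 of 1 seb1-1 epe1 parent, 2 of 2 pfs2-11 lists and 1 of 2 lists of the wild type of that set. The epe1 tfs1DN parent (0 of 1), the epe1 ago1 tfs1DN isolates (0 of 12) and their parents (0 of 3) had none. Whether this pattern goes with genotype or with the set of libraries was not tested. The widths of these 3 peaks are close to the 1 kb window over which the study smoothed its coverage.

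Gains over the parent were mostly small. A gain, a peak in the isolate at a locus where the parent had none, was called 98 times, in 19.8% of the 495 pairs of such a locus and an isolate. The isolates had 1 to 11 gains each (mean 6.53 ± 3.2, SD, n = 15), with the fewest in isolate 13 and the most in isolates 4 and 5. The ends of chromosome III held 44 of the 98 and the ends of chromosome II 25. The 28 gains outside constitutive heterochromatin lay at 15 loci, 11 of them in a single isolate, and 25 of the 28 were under 1 kb, with a fold of 3.02 to 3.76. These short gains lay close to the calling threshold.

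**Figure D4:**
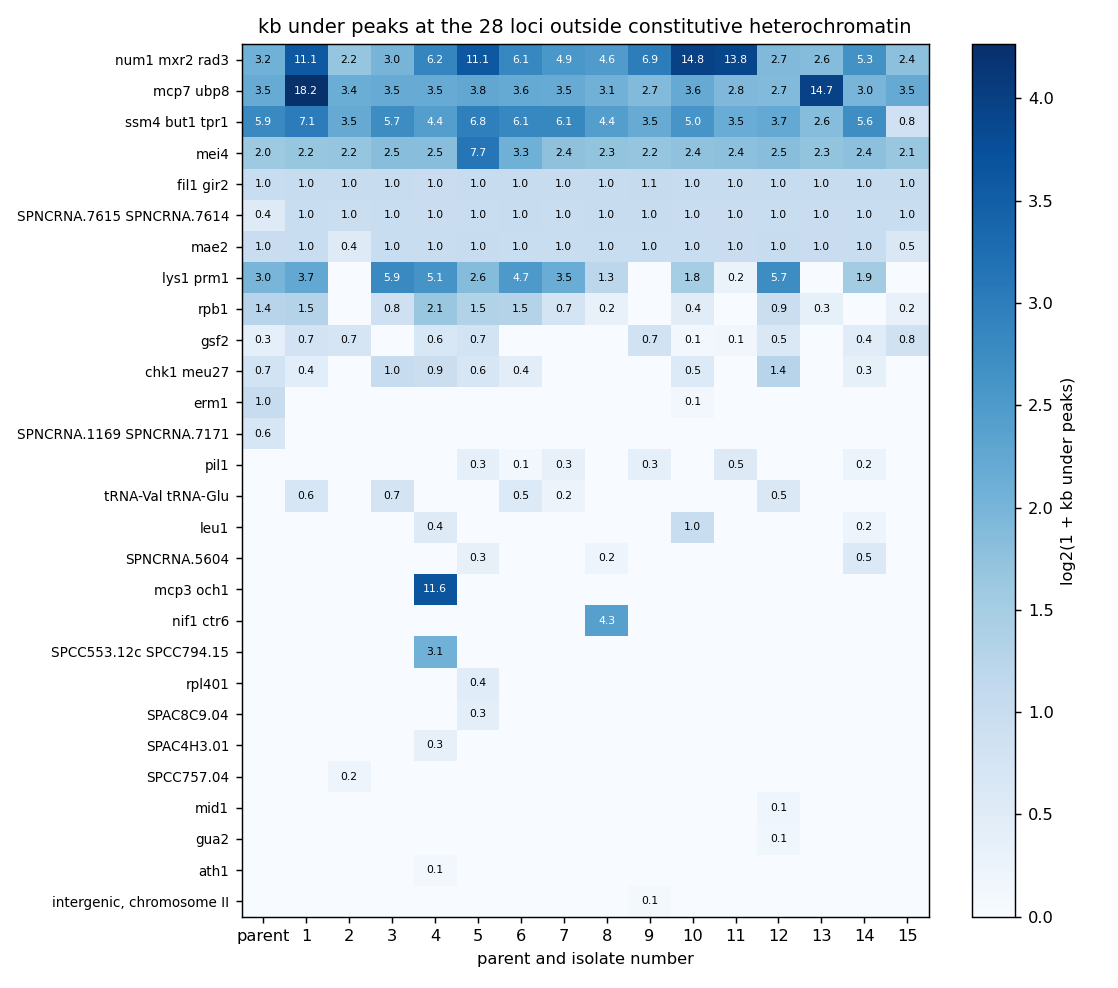
Each cell gives the kb under peaks at one of the 28 loci outside constitutive heterochromatin (rows, by leading genes) in the parent and isolates 1 to 15 (columns), shaded by log2(1 + kb). The upper 7 rows are filled in every library, and isolates 4 and 8 hold the 3 gains of more than 1 kb, 11.6, 4.27 and 3.15 kb.

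The 3 gains of at least 1 kb outside constitutive heterochromatin were in isolates 4 and 8. Isolate 4 gained 11.6 kb at chrI:5073797-5085352, 413 kb from the nearest parent peak and with a fold of 11.6. The region overlaps a heterochromatin domain on the study's list of known sites. It covered the whole of mcp3, another meiotic coiled-coil gene, and of och1, a mannosyltransferase gene, and reached 3.44% of red1, a gene of the RNA elimination machinery itself. No other isolate, and none of the 57 other lists, had a peak there. Isolate 4 also gained 3.15 kb at chrIII:278722-281869, 1.54 kb from the mae2 peak, with a fold of 6.18, over SPCC553.12c and SPCC794.15. Isolate 8 gained 4.27 kb at chrII:2098841-2103577, over nif1, a regulator of mitotic entry, ctr6, a vacuolar copper transporter gene, and mti3. Its fold was 3.41, and it had no peak when a fold of at least 4.5 was asked.

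The gains that recurred among isolates were weak. pil1, which encodes the main eisosome protein, had 0.084 to 0.465 kb in 6 isolates, and the 2 tRNA genes beside centromere II (valine and glutamate) had 0.186 to 0.674 kb in 5. leu1, the leucine biosynthesis gene at which the vector integrates, had 0.995 kb in isolate 10, 0.438 kb in isolate 4 and 0.158 kb in isolate 14, and none in the other 12 or the parent. A peak at this locus was also in 16 of the 57 other lists. The H3K9me2 lists among them were those of 11 of 13 epe1 tfs1DN isolates, 1 parent of those isolates and 1 of 15 seb1-1 epe1 tfs1DN isolates. The rest of the 16 came from input or RNA polymerase II libraries. SPNCRNA.5604 had a peak in 3 isolates. None of the pil1 or leu1 peaks reached a fold of 4.5.

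Most losses were of weak peaks, and fex2 was the exception. A loss, a parent locus with no peak in the isolate, was called 117 times, in 22.3% of 525 pairs, and the isolates had 4 to 12 each (mean 7.8 ± 2.68, SD, n = 15). The most were in isolate 11 and the fewest in isolates 4 and 12. The longest parent locus lost in any isolate had 4.72 kb, at the right end of chromosome I in isolate 2. The parent loci lost in any isolate had 0.211 to 4.72 kb (median 0.757 kb), and the parent's fold was under 4.5 at 14 of the 15. The remaining locus was fex2, with 2.8 kb and a fold of 10.1 in the parent and no peak in isolates 11 and 15. With only peaks of a fold of at least 4.5 counted, the mean number of losses was 0.33 for each isolate, 5 in all, of which 2 were at fex2 and 3 at mcp7, where isolates 9, 11 and 12 kept weaker peaks. At a further pair of loci nearly every clone differed from the parent, which had 1.04 kb at erm1 (chrIII:1035813-1036848) and 0.607 kb over the noncoding genes beside it, SPNCRNA.1169 and SPNCRNA.7171. Isolate 10 had 0.073 kb at erm1, the other isolates had none, and no isolate had a peak at the noncoding genes. The parent's fold at both was 3.54. gsf2, which encodes a flocculin (a cell-surface adhesin), had 0.306 kb in the parent and a peak in 10 isolates.

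**Figure D5:**
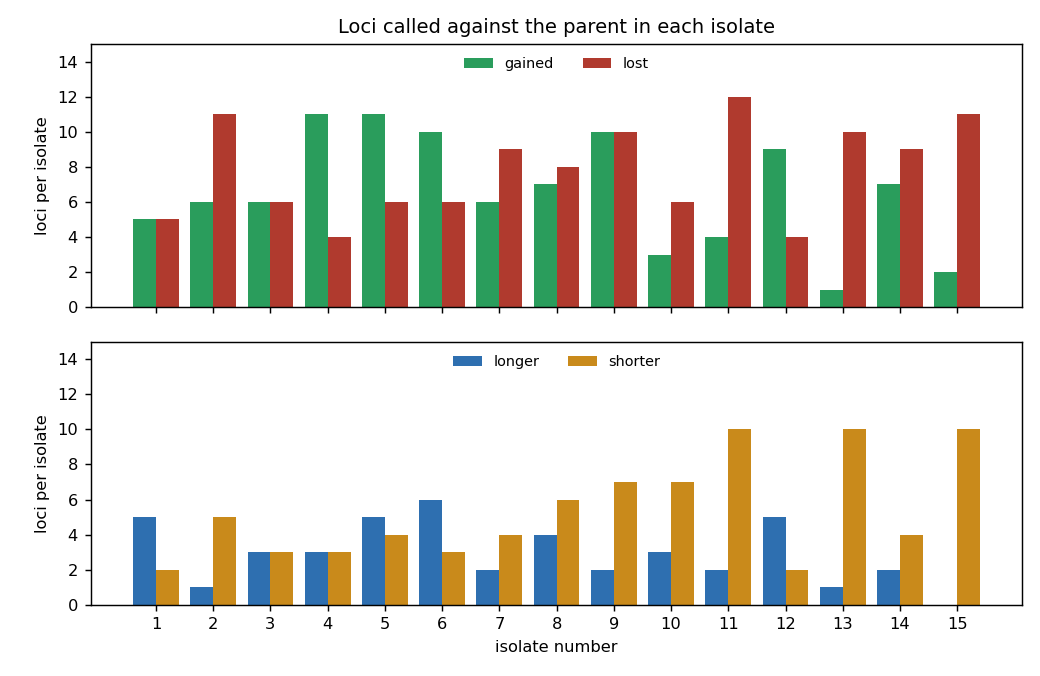
Paired bars give, for each isolate, the number of loci gained and lost (upper panel) and at least 1 kb longer and shorter (lower panel) than in the parent. Losses exceed gains in isolates 2, 11, 13 and 15 by at least 5 loci, and isolates 11, 13 and 15 share the highest count of shorter loci, 10.

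The remaining losses outside constitutive heterochromatin lay beside the centromeres. Within 10 kb of a centromeric locus, a distance chosen after the values were seen, there were 6 loci, at lys1 and prm1 and at gua2 beside centromere I, at rpb1 and the 2 tRNA genes beside centromere II, and at chk1 and meu27 and at mid1 beside centromere III. At lys1, a lysine biosynthesis gene, the parent had 2.98 kb and the isolates 0 to 5.88 kb (median 1.89 kb), with no peak in isolates 2, 9, 13 and 15. At rpb1, which encodes the largest subunit of RNA polymerase II, the parent had 1.4 kb and the isolates 0 to 2.13 kb, with no peak in 4. At chk1, a checkpoint kinase gene, and meu27 the parent had 0.725 kb and the isolates 0 to 1.38 kb, with no peak in 7. Isolate 12 held all 6 of these loci and 8.82 kb, isolates 1, 3 and 6 held 4 each, and isolates 2 and 9 held none. The order differed between loci: isolates 3 and 12, the highest at lys1 and at chk1, had 0.85 and 0.95 kb at rpb1, less than the parent. Isolates 3, 4, 6 and 12 were also at least 1.76 kb longer than the parent at lys1, and all 4 had the longer left domain of centromere I. No peak at lys1, rpb1 or chk1 reached a fold of 4.5 in any library. Isolates 2 and 9 had a centromeric fold of 49.3 and 58.8, below that of the parent, and the part of enrichment in these losses was not tested.

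At loci held by both isolate and parent, a difference of at least 1 kb was called longer in 44 of 408 pairs (10.8%) and shorter in 80 (19.6%). The isolates had 0 to 6 longer loci (mean 2.93 ± 1.75) and 2 to 10 shorter loci (mean 5.33 ± 2.87, SD, n = 15). Shorter loci were most frequent at the chromosome ends and mat3, and longer ones at num1 in 10 isolates, the left domain of centromere I in 8 and the left end of chromosome III in 8. Outside constitutive heterochromatin 19 calls were longer and 17 shorter. Taking clones by their pattern, isolates 1, 5, 10 and 11 were long at num1, isolates 1 and 13 at mcp7, isolate 5 at mei4 and isolate 4 at mcp3, so that isolate 1 had both of the long mcp7 and num1 domains and isolate 13, long at mcp7, had 2.64 kb at num1.

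Counted over protein-coding genes outside constitutive heterochromatin, 50 lay under a peak in at least 1 library, 8 were covered over at least 50% of their length in the parent, and 4 of these, mcp7, ubp8, num1 and mei4, were so covered in every isolate. Another 24 genes passed 50% in at least 1 isolate and not in the parent, 15 of them in a single isolate. Of 10 meiotic genes of the RNA elimination list, 4 had a peak in the parent and in all 15 isolates (mei4, ssm4, num1 and mcp7), and rec8, spo5, crs1, mug8, mug9 and mug10 had none in any library. Over all 5113 coding genes, 158 (3.09%) lay under a peak in at least 1 of the 16 libraries. The genes of the silencing machinery had none, and a count of 0 of 25 is near that share: 0 of 9 of the Clr4 complex and HP1 list (with clr4 and swi6), 0 of 7 of the RNAi list (with ago1 and dcr1), 0 of 4 of the SHREC list and 0 of 5 of the anti-silencing list (epe1, mst2, leo1, paf1 and bdf2). A peak list cannot check the epe1 deletion itself. None of the 13 Tf2 retrotransposons had a peak. Of the 3 phosphate genes, pho84 had a peak in isolate 9 and pho1 in isolate 12, and both lie toward the right end of chromosome II. The remaining gene, tgp1, lies elsewhere on that chromosome and had no peak in the parent or any isolate. Of 10 euchromatic control genes, act1 and rpb1 had a peak, both beside a domain described above.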

How the data were processed

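H3K9me2 was measured by ChIP-seq in 15 isolates and 1 parent, with 1 input. The authors removed adaptors, aligned reads with Bowtie to build ASM294v2 and smoothed coverage over 1 kb; SAMtools and bedtools appear in the submitters' notes without a version, and the peak caller is not given in the sources used here. The deposited lists, 1 for each library, give peak positions and coverage signal for peak and chromosome. In all 16 antibody libraries, peaks held over 100% of the coverage that the chromosome value implies for some chromosome. The peak and chromosome values therefore cannot both be plain means, and which of them is not was not settled. Folds were used to rank and filter peaks and in the relation of centromeric fold to the chromosome ends. Read depth is not given, and how reads that match repeated sequence were placed was not examined. Starts were made 1-based. Genes and sequences came from RefSeq ASM294v3, whose nuclear chromosomes no peak exceeded. Centromere and mating-type bounds and the ends (100 kb, 50 kb on chromosome III) were set by hand. Loci, calls and overlaps were computed in Python 3.11.15 (numpy 2.4.6, pandas 2.3.3, scipy 1.17.1). The call rules were run on copies of the parent list with changes of at least 1 kb put in. That run checks the code only and cannot show how reliable calls near the threshold are. Correlations used 100000 permutations. Named genes were every non-constitutive locus held by all libraries, the longest and most frequent gains, every lost or most variable parent locus and fixed gene lists. Members and lists were chosen with earlier results of these data known. Alternatives changed fold, length, joining, input overlap and distance. The lists of other samples were used only to count recurrence.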

Additional observations from a re-analysis of the deposited data

How the results depend on the processing

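No paired analysis was possible because isolate numbers name clones and there was 1 parent library, so no test compared groups. Call counts moved with the settings. With a fold of at least 4.5, each isolate had on average 3.4 gained, 0.33 lost, 1.47 longer and 3 shorter loci. Of those 51 gains, 49 lay within loci that the parent holds when all peaks are counted, and 2 of the 98 gains as reported remained, at mcp3 and beside mae2. With peaks of at least 1 kb, the means were 3.53 gained and 3.67 lost. Joining only touching peaks gave 10.4 gained, and joining below 5 kb gave 2.13 gained and 1.47 lost. Gains over 10 kb from every parent peak averaged 3.67, and a 2 kb difference gave 1.87 longer loci. Leaving out loci that overlap an input peak left 11 shared loci, 1.67 longer and 3.13 shorter, and leaving out such peaks left 133 kb and an overlap of 0.65. The correlation of coverage with the number of peaks changed sign with peaks of at least 1 kb (r = 0.11, permutation p = 0.699) and without isolate 7 (r = 0.0203, permutation p = 0.944), the latter chosen after seeing the data. The cause of the other shifts was not tested. The other 20 values moved by less than 1.5 times or 1 SD, including those without isolates 11 and 15, also chosen after seeing the data. Among these values were the loci shared by all libraries, 14 in place of 20 with a fold of at least 4.5 and 16 with peaks of at least 1 kb.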

Other observations

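The ends of chromosome III did not follow those of chromosomes I and II. Across the 15 isolates, the lengths under peaks at these 2 sets of ends had r = -0.15 (permutation p = 0.594, adjusted p = 0.815 over 8 relations) and rho = -0.38 (p = 0.161, adjusted p = 0.258), and r was -0.56 without isolates 11 and 15, the 2 farthest from the median. Isolates 1, 4 and 12, with 185, 192 and 202 kb at the ends of chromosomes I and II, had no peak at the right end of chromosome III. Isolates 3 and 8, with 187 and 189 kb at the ends of chromosomes I and II, had 0.608 and 3.14 kb there. This relation was chosen after the values were seen, and 2 of the 5 loci at that end overlap a peak of the input.

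Isolates with nearly the same kb could differ in their number of peaks. Isolate 7 had 83 peaks over 353 kb, and isolate 2 had 47 over 361 kb. At the left end of chromosome I isolate 7 had 19 peaks in a stretch that the parent, isolate 2 and isolate 12 each covered with 1. The most alike pair of isolates was 3 and 12, with an overlap of 0.93, and the least alike was 4 and 11, with 0.69.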
